A study of Rattus with 8 samples.

Results

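Interferon-stimulated genes are the genes that a cell switches on when it senses a virus or an interferon, and they were followed here in cultured rat neural stem cells. The list names 44 rodent gene symbols by function, with no threshold on measured values. It was chosen with earlier results of these data known, so its counts beside those of all genes are a description. Of the 44, 42 were found by symbol among the 18374 genes of the deposited table. Ifit1 and Oas3 had no row under these symbols and were not analysed here. Messenger RNA had been sequenced from 8 libraries at day 5, 2 from each of 4 groups. The nanosticker group was cultured with piezoelectric nanostickers, the ultrasound group was treated with ultrasound, the piezoelectric group was cultured with what the label calls only piezoelectric, and the untreated group received nothing. A piezoelectric material turns mechanical strain into electric charge, and the title of the study names nanostickers that ultrasound activates for a cell therapy of brain injury. All libraries came from cells labelled as neural stem cells, and no genotype or strain is given. Whether the nanosticker cells were also exposed to ultrasound is not stated. Nothing in the labels says that the libraries of a group are separate cultures. A p-value here therefore reflects only how these samples vary, and that variation may be technical.

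As background, type I and type III interferons bind receptors that activate the kinases JAK1 and TYK2. Their signal assembles a transcription factor complex, ISGF3, which includes STAT2 and IRF9 and binds the interferon-stimulated response element in the promoters of such genes. The products sense foreign nucleic acid, degrade or edit RNA, block viral entry or release, tag proteins with the ubiquitin-like ISG15, and restrain the response itself. Neural stem cells are known to keep part of this programme on without infection.

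The libraries held 15239133 to 15628667 estimated counts, with 16497 to 16613 genes above 0. The deposited counts were rounded and tested with edgeR's quasi-likelihood test in 1 fit of all 8 libraries. Of the 18374 genes, 14336 passed the low-count filter, and an adjusted p is the Benjamini-Hochberg value over these genes, with a threshold of 0.05. Levels of 1 gene across libraries are CPM, the counts scaled to a common library total with the TMM factors that the test uses. Levels of different genes are compared only as TPM, which are also corrected for transcript length. The 2 untreated libraries differed from each other more than those of any other group, with a chi-square per gene of 10.3 against 2.44 to 3.19 in the treated groups, and their log2 ratio varied with transcript length (Spearman's rho -0.432 across genes).

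Markers of several cell types differed between the groups. Against untreated cells 19.8% of all genes tested rose and 17.7% fell in nanosticker cells, and 4.03% rose and 3.16% fell in ultrasound cells. In piezoelectric cells 0.16% rose and 0.0698% fell. In nanosticker cells 1 marker called out of 6 or 8 is therefore near the share of all genes. The 8 markers of neural stem cells summed to 7947 to 8189 TPM in nanosticker libraries, 11349 to 11743 in ultrasound, 10381 to 10645 in piezoelectric and 10293 to 10794 in untreated libraries, and most of that sum was Vim and Fabp7. Against untreated cells 1 of the 8, Sox2, rose and 4 fell in nanosticker cells (Pax6, Fabp7, Hes5 and Sox9), and 2 rose (Nes and Vim) and 3 fell (Pax6, Hes5 and Sox9) in ultrasound cells. The 13 markers of microglia and macrophages, brain-resident and blood-derived phagocytes that respond strongly to interferon, summed to 6.66 to 8.48 TPM in nanosticker libraries, 52.6 to 55.8 in ultrasound, 37.5 to 41.5 in piezoelectric and 50.4 to 59.3 in untreated libraries. Of these, 10 fell in nanosticker against untreated cells and 0 rose, and Cx3cr1 had 0 counts in both nanosticker libraries. Tmem119 and P2ry12 were not lower there. Tmem119 had 0.72 and 1.21 TPM in nanosticker and 0.66 and 0.60 in untreated libraries. P2ry12 had 0.80 and 0.84 TPM in nanosticker and 0.80 and 0.74 in untreated libraries. In ultrasound against untreated cells 0 of the 13 passed the edgeR test in either direction, and at an unadjusted p below 0.05 there were 2 higher and 0 lower. The 6 oligodendrocyte markers summed to 16857 to 17025 TPM in nanosticker libraries, 6517 to 6547 in ultrasound, 5044 to 5062 in piezoelectric and 4893 to 5285 in untreated libraries, and against untreated cells all 6 rose in nanosticker cells, while 4 rose and 1 fell in ultrasound cells. Astrocyte markers summed to 1980 to 1996 TPM in nanosticker, 3844 to 4135 in ultrasound, 4232 to 4422 in piezoelectric and 3399 to 3491 in untreated libraries, and 5 of 6 fell in nanosticker cells, while 2 rose and 1 fell in ultrasound cells. In piezoelectric cells 1 astrocyte marker rose and 0 fell. Neuron markers summed to 291 to 298 TPM in nanosticker, 453 to 459.7 in ultrasound, 518 to 536 in piezoelectric and 539.6 to 545 in untreated libraries, and in nanosticker cells 5 of 6 fell and 1 rose. Fibroblast and meningeal markers summed to 101 to 102 TPM in nanosticker, 104 to 107 in ultrasound, 107 to 116 in piezoelectric and 78.2 to 89.2 in untreated libraries. Of these 8, 3 rose and 1 fell in nanosticker cells, 4 rose and 1 fell in ultrasound cells, and 3 rose and 0 fell in piezoelectric cells. Of the lymphocyte and natural killer cell markers only Cd4 was tested. It fell in nanosticker (log2 fold change -2.67) and in ultrasound cells (-1.74), each against untreated cells. Of 3 plasmacytoid dendritic cell markers tested, 1 rose and 1 fell in nanosticker cells. Of 2 endothelial markers tested, 1 rose there, and 0 of either list passed in ultrasound cells. In these bulk samples fewer cells of a type and less RNA per cell cannot be told apart, and the part of these cell types in the results on interferon-stimulated genes was not tested.

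Of the 42 members in the table, 39 passed the filter, and the other 3 were almost without reads. Zbp1, a sensor of Z-form nucleic acids, had 1 and 2 counts in the ultrasound libraries and 0 in the other 6. Oas2 had 1 count in 1 piezoelectric library, and the nuclear body protein Sp100 had at most 2 after rounding. In untreated cells 17 of the 39 stood above 10 TPM and 15 below 5 TPM. The highest was Ifitm3, which blocks the fusion of viruses with endosomes, at 296 ± 38.2 TPM (SD, n = 2), followed by Ifi27 at 201 ± 15.7 and Mx2 at 56.2 ± 1.79. The spreads of neighbours in this order often overlap below that, as for Gbp2 at 32.0 ± 1.16 and Adar at 30.5 ± 4.09 and, further down, Ifi35 at 22.5 ± 1.26, Isg15 at 22.0 ± 1.43 and Bst2 at 21.9 ± 3.59 TPM. Ifit3, at 0.195 ± 0.106 TPM, and Ifi44l, at 0.310 ± 0.0566 TPM, were the lowest.

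Many of these genes were higher in ultrasound cells, and 0 were lower past the threshold. Against untreated cells 23 of the 39 rose, where 4.03% of all 14336 genes tested rose and 3.16% fell. At an unadjusted p below 0.05 the edgeR test gave 31 members higher and 0 lower, and DESeq2 called 13 higher and 0 lower. DESeq2 gave an adjusted p for 21 of the 23. The median log2 fold change of the 39 members was 0.59 beside 0.01 for all genes tested, and both ultrasound libraries lay above both untreated libraries in CPM for 35 members and below them for 0. Such a gap was found in the higher direction for 23.5% of all genes and in the lower direction for 22.8%. Fits without 1 ultrasound library follow with only the count of members that rose, not the share of all genes. Without ultrasound library 1 the count was 12, and without ultrasound library 2 it was 9.

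In nanosticker cells the members that changed were mostly lower. Against untreated cells 17 of the 39 fell, where 17.7% of all genes fell, and 4 rose, where 19.8% of all genes rose. The median log2 fold change of the members was -0.26 beside 0.01 for all genes tested. Both nanosticker libraries lay below both untreated libraries for 23 members, a gap found for 31.1% of all genes, and above them for 8, a gap found for 33.7%. Set directly against ultrasound cells, nanosticker cells had 32 of the 39 members lower, where 16.9% of all genes were lower, and 0 higher, where 17.6% were higher. In the higher direction 1 member had an unadjusted p below 0.05 in that comparison, and DESeq2 called 0. The median was -0.73 beside -0.01 for all genes, and both nanosticker libraries lay below both ultrasound libraries for 35 members, beside 36.2% of all genes, and above them for 2, beside 34.6%. The comparisons of nanosticker, ultrasound and piezoelectric cells with untreated cells share the 2 untreated libraries, and those with ultrasound cells share the 2 ultrasound libraries. Their values stand side by side below without a test of their likeness.

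Summed over the 42 members the level came to 1004 and 971 TPM in nanosticker libraries, 1448 and 1501 TPM in ultrasound libraries, 1083 and 1051 TPM in piezoelectric libraries and 985 and 944 TPM in untreated libraries. Ifitm3 alone contributed a mean of 464 TPM to the nanosticker sums, 619.5 to the ultrasound sums, 381 to the piezoelectric sums and 296 to the untreated sums. By group means of CPM, ultrasound cells were highest for 35 of the 39 tested members and nanosticker cells lowest for 27. Ultrasound library 2 was the highest of the 8 libraries for 28 members and ultrasound library 1 for 7.

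**Figure D1:**
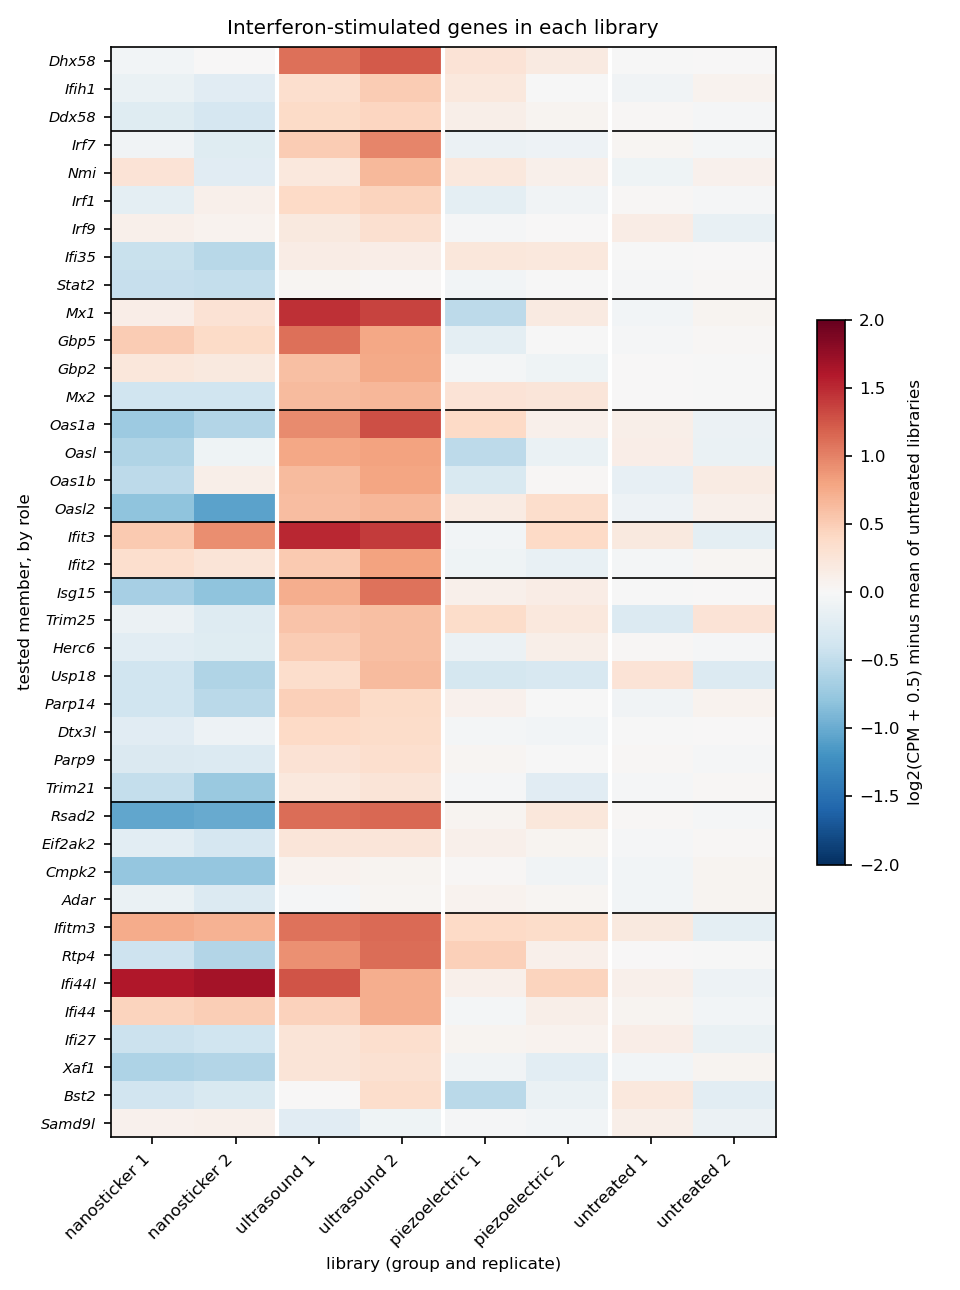
Heat map of the 39 tested interferon-stimulated genes (rows, ordered by role) in the 8 libraries (columns), coloured by log2(CPM + 0.5) minus the mean of the untreated libraries, from blue (lower) to red (higher). The ultrasound columns are mostly red, the ultrasound mean being the highest for 35 of the 39 members, and the nanosticker mean is the lowest for 27.

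Of the RNA and DNA sensors, Dhx58, Ddx58 and Ifih1, whose products bind viral RNA in the cytosol, passed the filter, and Zbp1 did not. Dhx58, which encodes LGP2, a regulator of the other RNA helicases, had 5.29 and 5.60 CPM in nanosticker, 12.5 and 13.6 in ultrasound, 6.80 and 6.38 in piezoelectric and 5.49 and 5.60 in untreated libraries. The ultrasound libraries stand apart from the other 6, which lie close together. The log2 fold change of Dhx58 was 1.23 ± 0.14 (adjusted p = 1.85e-04) in ultrasound against untreated cells, -0.03 ± 0.15 (adjusted p = 0.915) in nanosticker against untreated cells, and -1.26 ± 0.14 (adjusted p = 1.61e-05) in nanosticker against ultrasound cells. Ddx58, which encodes the helicase RIG-I, had 52.4 and 49.3 CPM in nanosticker, 80.9 and 83.6 in ultrasound, 67.3 and 64.1 in piezoelectric and 62.8 and 61.2 in untreated libraries. Its groups do not overlap, with ultrasound at the top and nanosticker at the bottom. Ddx58 rose by 0.41 ± 0.07 on the log2 scale in ultrasound against untreated cells (adjusted p = 0.00204). In nanosticker against untreated cells its log2 fold change was -0.29 ± 0.07 (adjusted p = 0.00466), a fall that lost the threshold without nanosticker library 2 (adjusted p = 0.0617). Ifih1, which encodes MDA5, the sensor of long double-stranded RNA, did not pass against untreated cells in either group, and its log2 fold change was -0.63 ± 0.13 (adjusted p = 0.00230) in nanosticker against ultrasound cells.

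Among the transcription factors and their partners, 2 of 6 tested members rose in ultrasound cells and 2 fell in nanosticker cells, each against untreated cells. Of all genes 4.03% rose in ultrasound cells and 17.7% fell in nanosticker cells. With 6 members a count of 2 cannot be told from the second share. Stat2, the STAT specific to ISGF3, had 66.3 and 65.7 CPM in nanosticker, 93.6 and 92.4 in ultrasound, 88.2 and 90.4 in piezoelectric and 89.6 and 93.0 in untreated libraries. Both nanosticker libraries lie below the other 6, which overlap across groups. Its log2 fold change was -0.47 ± 0.06 (adjusted p = 4.08e-05) in nanosticker against untreated cells and 0.03 ± 0.06 (adjusted p = 0.873) in ultrasound against untreated cells. Ifi35, which forms a complex with the STAT-binding protein Nmi, followed the same order of groups at the low end, with 8.27 and 7.69 CPM in nanosticker, 12.8 and 12.7 in ultrasound, 13.5 and 13.4 in piezoelectric and 11.5 and 11.5 in untreated libraries. Ifi35 had a log2 fold change of -0.53 ± 0.12 (adjusted p = 0.00366) in nanosticker against untreated cells and 0.15 ± 0.11 (adjusted p = 0.538) in ultrasound against untreated cells. The interferon regulatory factors Irf1 and Irf7 differed instead in ultrasound cells. Irf1, a transcription factor induced by interferon gamma and by type I interferon, had 22.0 and 27.0 CPM in nanosticker, 33.4 and 34.5 in ultrasound, 22.0 and 24.1 in piezoelectric and 25.5 and 24.9 in untreated libraries. Irf7, the factor that amplifies interferon alpha production, had 3.71 and 3.24 CPM in nanosticker, 5.78 and 8.24 in ultrasound, 3.59 and 3.63 in piezoelectric and 4.07 and 3.80 in untreated libraries. For both genes the ultrasound libraries lie above all others, and for Irf7 they differ between themselves. The ultrasound against untreated log2 fold change was 0.43 ± 0.10 (adjusted p = 0.0177) for Irf1 and 0.83 ± 0.20 (adjusted p = 0.0253) for Irf7. The nanosticker against untreated values were -0.04 ± 0.10 (adjusted p = 0.774) and -0.18 ± 0.21 (adjusted p = 0.558). The rise of Irf1 lost the threshold without ultrasound library 1 (adjusted p = 0.111), without library 2 (0.151) and with DESeq2 (0.0908). That of Irf7 lost it without ultrasound library 2 (0.303), without piezoelectric library 2 (0.0503), with DESeq2 (0.18) and under 2 further alternatives. Irf9, the DNA-binding subunit of ISGF3, had a log2 fold change of 0.25 ± 0.10 (adjusted p = 0.182) in ultrasound against untreated cells and 0.08 ± 0.10 (adjusted p = 0.608) in nanosticker against untreated cells. Nmi had 0.50 ± 0.25 (adjusted p = 0.288) and 0.05 ± 0.26 (adjusted p = 0.902) in the same comparisons.

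The Mx and guanylate-binding proteins are large GTPases that trap viral nucleocapsids or attack the vacuoles of intracellular pathogens, and all 4 rose in ultrasound against untreated cells. Of all genes 4.03% rose in that comparison. Mx2 had 65.4 and 65.5 CPM in nanosticker, 134 and 138 in ultrasound, 104 and 102 in piezoelectric and 87.3 and 85.5 in untreated libraries. Its groups are separate, with ultrasound highest and nanosticker lowest. The log2 fold change of Mx2 was 0.65 ± 0.06 (adjusted p = 2.93e-05) in ultrasound against untreated cells, -0.40 ± 0.06 (adjusted p = 1.23e-04) in nanosticker against untreated cells and -1.05 ± 0.06 (adjusted p = 2.35e-08) in nanosticker against ultrasound cells. Mx1 had far fewer reads, with 3.44 and 3.91 CPM in nanosticker, 9.37 and 8.62 in ultrasound, 1.99 and 3.57 in piezoelectric and 2.97 and 3.22 in untreated libraries. Only the ultrasound libraries stand apart. Its log2 fold change was 1.54 ± 0.23 (adjusted p = 0.00124) in ultrasound against untreated cells and 0.25 ± 0.25 (adjusted p = 0.471) in nanosticker against untreated cells. Mx1 and Mx2 have counts that are not whole, so reads were divided between them or with other sequences and their separate values are uncertain. Gbp2 had 51.8 and 50.9 CPM in nanosticker, 67.3 and 75.6 in ultrasound, 43.2 and 41.5 in piezoelectric and 44.7 and 43.8 in untreated libraries, and Gbp5 had 5.69 and 5.19 CPM in nanosticker, 8.92 and 6.96 in ultrasound, 3.33 and 3.83 in piezoelectric and 3.81 and 3.93 in untreated libraries. For both, the nanosticker libraries lie between the ultrasound libraries above and the other 4 below. Gbp2 rose by 0.69 ± 0.07 on the log2 scale in ultrasound against untreated cells (adjusted p = 1.16e-04) and by 0.21 ± 0.07 in nanosticker against untreated cells (adjusted p = 0.0391). The smaller rise of Gbp2 in nanosticker cells ended under 9 of the 17 alternatives, among them the removal of either nanosticker library (adjusted p = 0.159 without library 1 and 0.109 without library 2). Its adjusted p also exceeded the threshold without either piezoelectric library (0.0575 and 0.0581) or untreated library 2 (0.0674), with DESeq2 (0.177) and with library size alone (0.13). Gbp5 had a log2 fold change of 1.04 ± 0.18 (adjusted p = 0.00366) in ultrasound against untreated cells, which lost the threshold without ultrasound library 1 (0.0755). In nanosticker against untreated cells it had 0.49 ± 0.19 (adjusted p = 0.0558). In nanosticker against ultrasound cells Gbp2 had -0.48 ± 0.07 (adjusted p = 2.39e-04) and Gbp5 had -0.54 ± 0.18 (adjusted p = 0.0300). The call of Gbp5 there ended without either nanosticker library (0.0843 and 0.166), without ultrasound library 1 (0.28) and with DESeq2 (0.212).

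The oligoadenylate synthetases make the second messenger that activates RNase L against viral RNA, and Oasl and Oasl2 belong to the same family. Oas1a had 0.927 and 1.08 CPM in nanosticker, 4.04 and 5.30 in ultrasound, 2.63 and 2.04 in piezoelectric and 2.07 and 1.67 in untreated libraries. The ultrasound libraries lie above the others and the nanosticker libraries below them. Oas1a had a log2 fold change of 1.32 ± 0.25 (adjusted p = 0.00630) in ultrasound against untreated cells, -0.89 ± 0.30 (adjusted p = 0.0342) in nanosticker against untreated cells and -2.21 ± 0.28 (adjusted p = 4.26e-05) in nanosticker against ultrasound cells. The first of these lost the threshold without ultrasound library 2 (0.1) and with DESeq2 (0.0629), and the second under 6 of the 17 alternatives, among them the removal of either nanosticker library (0.158 without library 1 and 0.0837 without library 2) and of untreated library 1 (0.126). Oasl2 had 6.68 and 5.53 CPM in nanosticker, 18.7 and 19.4 in ultrasound, 13.6 and 15.6 in piezoelectric and 11.3 and 12.9 in untreated libraries, and its groups keep the same order. Oasl2 had a log2 fold change of 0.65 ± 0.13 (adjusted p = 0.00712) in ultrasound against untreated cells, -0.99 ± 0.14 (adjusted p = 1.15e-04) in nanosticker against untreated cells and -1.64 ± 0.14 (adjusted p = 1.08e-06) in nanosticker against ultrasound cells. Without ultrasound library 1 the adjusted p of the ultrasound rise was 0.0696 and without library 2 it was 0.0927. Oas1b, whose counts are not whole, and Oasl did not pass against untreated cells in either group. In nanosticker against ultrasound cells their log2 fold changes were -1.01 ± 0.26 (adjusted p = 0.0101) and -1.58 ± 0.38 (adjusted p = 0.00632). Both calls ended without nanosticker library 1 (0.118 and 0.0768) and with DESeq2 (0.0566 and 0.0793), and that of Oas1b also without ultrasound library 2 (0.0776).

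The IFIT family includes the product of Ifit1, a gene without a row here, which binds viral RNA that lacks the host's cap methylation. Both measured members of the family were scarce. Ifit2 had 3.57 and 3.37 CPM in nanosticker, 4.17 and 5.17 in ultrasound, 2.56 and 2.42 in piezoelectric and 2.65 and 2.83 in untreated libraries. Ifit3, which stabilises complexes of the family, had 0.529 and 0.877 CPM in nanosticker, 1.54 and 1.41 in ultrasound, 0.192 and 0.446 in piezoelectric and 0.323 and 0.129 in untreated libraries. The ultrasound libraries are highest for both, and the nanosticker libraries come next. In ultrasound against untreated cells the log2 fold change was 0.77 ± 0.20 (adjusted p = 0.0403) for Ifit2 and 2.66 ± 0.53 (adjusted p = 0.00827) for Ifit3. Neither passed in nanosticker against untreated cells, at 0.34 ± 0.21 (adjusted p = 0.232) and 1.60 ± 0.60 (adjusted p = 0.0523), or in nanosticker against ultrasound cells, at -0.43 ± 0.20 (adjusted p = 0.122) and -1.06 ± 0.44 (adjusted p = 0.0791). The rise of Ifit2 ended under 10 of the 17 alternatives, with adjusted p between 0.0663 and 0.379, and removing any 1 of 7 libraries was among them. That of Ifit3 ended without ultrasound library 1 (0.0879) or library 2 (0.0635).

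**Figure D2:**
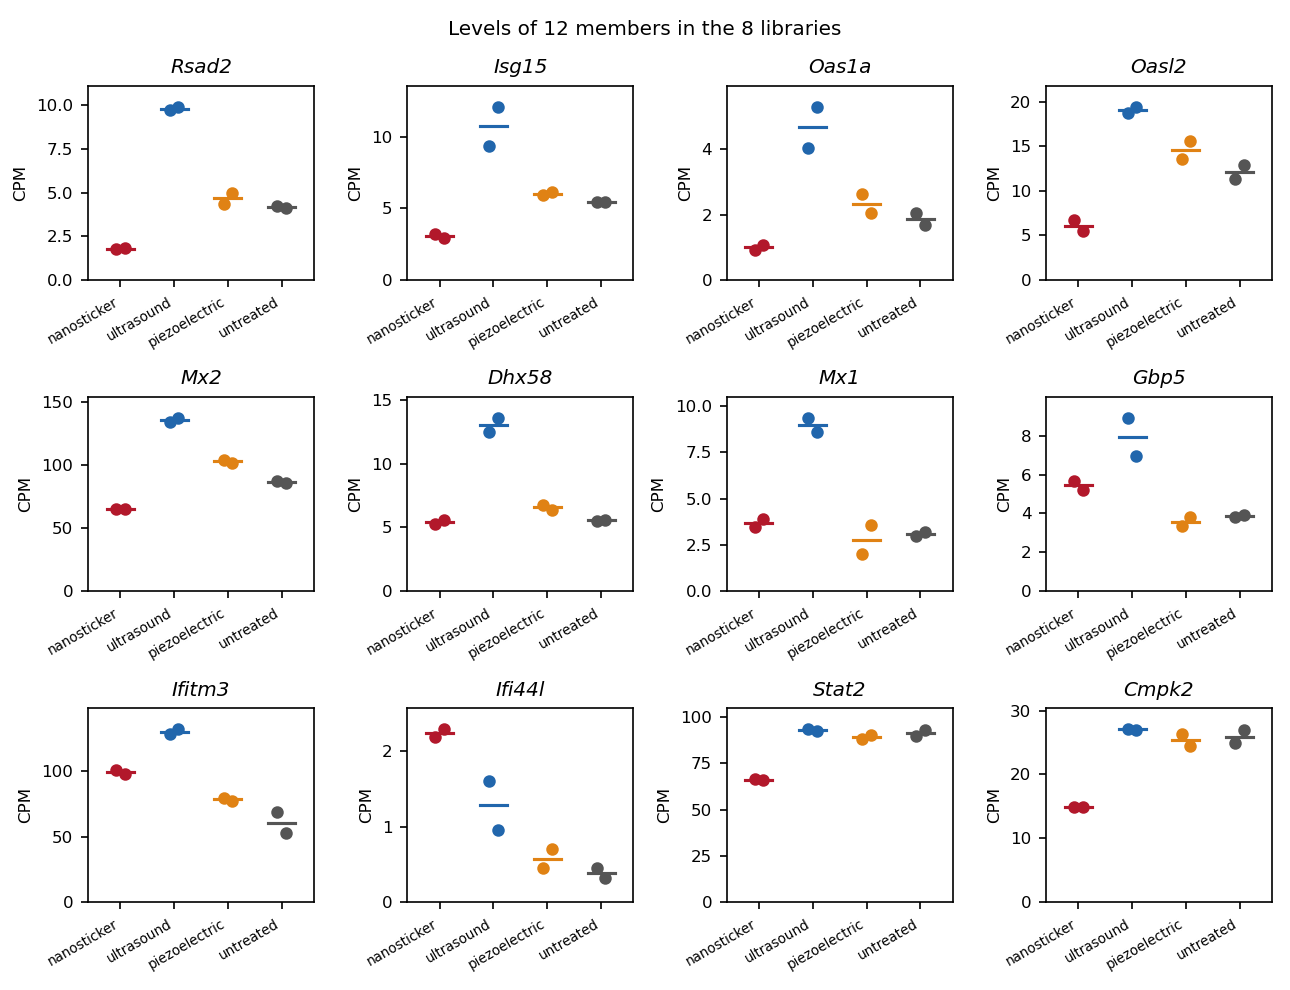
CPM of 12 interferon-stimulated genes in each library, 1 panel per gene with its own linear axis from 0, in the order nanosticker, ultrasound, piezoelectric and untreated. Points are libraries and horizontal lines are the means of 2 libraries, and Rsad2 shows 1.79 and 1.82 CPM in nanosticker, 9.69 and 9.90 in ultrasound and 4.26 and 4.12 in untreated libraries.

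The group built around ISG15, ubiquitin and ADP-ribose held 8 tested members, of which 4 rose in ultrasound cells and 4 fell in nanosticker cells, each against untreated cells. In these comparisons 4.03% of all genes rose in ultrasound cells and 17.7% fell in nanosticker cells. All 8 members were lower in nanosticker than in ultrasound cells, where 16.9% of all genes were lower. Isg15, the ubiquitin-like modifier itself, had 3.24 and 2.90 CPM in nanosticker, 9.37 and 12.1 in ultrasound, 5.90 and 6.12 in piezoelectric and 5.42 and 5.47 in untreated libraries. Its groups are separate, and ultrasound library 2 is the highest. The log2 fold change of Isg15 was 0.98 ± 0.16 (adjusted p = 0.00290) in ultrasound against untreated cells, -0.82 ± 0.18 (adjusted p = 0.00342) in nanosticker against untreated cells and -1.80 ± 0.18 (adjusted p = 4.58e-06) in nanosticker against ultrasound cells. The ultrasound rise of Isg15 lost the threshold without ultrasound library 2 (0.0646). Parp14, an ADP-ribosyltransferase, had 29.9 and 27.1 CPM in nanosticker, 55.3 and 51.5 in ultrasound, 42.1 and 39.1 in piezoelectric and 37.5 and 41.4 in untreated libraries. Parp9, which works with the ubiquitin ligase Dtx3l, had 26.9 and 27.3 CPM in nanosticker, 40.4 and 41.8 in ultrasound, 34.0 and 32.6 in piezoelectric and 33.6 and 32.3 in untreated libraries. In both the ultrasound libraries are above, and the nanosticker libraries below, all of the others. The ultrasound against untreated log2 fold change was 0.44 ± 0.08 (adjusted p = 0.00533) for Parp14 and 0.32 ± 0.07 (adjusted p = 0.0167) for Parp9. The nanosticker against untreated value was -0.47 ± 0.09 (adjusted p = 7.68e-04) for Parp14 and -0.28 ± 0.07 (adjusted p = 0.00923) for Parp9. Parp14 lost its ultrasound call without ultrasound library 1 (0.0997). Parp9 lost its ultrasound call without either ultrasound library (0.0976 and 0.155) and under 2 other alternatives. It lost its nanosticker call without nanosticker library 1 (0.0607) and with DESeq2 (0.0886). Trim21, a ubiquitin ligase that also binds antibodies in the cytosol, had 11.9 and 9.85 CPM in nanosticker, 19.6 and 20.3 in ultrasound, 16.6 and 14.3 in piezoelectric and 16.7 and 17.1 in untreated libraries. The nanosticker libraries are lowest and the ultrasound libraries highest, by a smaller step. The log2 fold change was -0.63 ± 0.12 (adjusted p = 0.00127) in nanosticker against untreated cells and 0.24 ± 0.12 (adjusted p = 0.269) in ultrasound against untreated cells. Usp18, the protease that removes ISG15 and dampens receptor signalling, Herc6, an ISG15 ligase in mouse, and Trim25, a ubiquitin ligase acting on RIG-I, passed in neither comparison with untreated cells. Their log2 fold changes in nanosticker against ultrasound cells were -1.15 ± 0.25 (adjusted p = 0.00318), -0.88 ± 0.19 (adjusted p = 0.00305) and -0.82 ± 0.17 (adjusted p = 0.00230), and that of Herc6 lost the threshold with DESeq2 (0.0514).

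All 4 members that act on RNA or nucleotides fell in nanosticker against untreated cells, and 2 of them rose in ultrasound against untreated cells. Of all genes 17.7% fell in the first comparison and 4.03% rose in the second. Rsad2, which encodes viperin, an enzyme that makes a chain-terminating nucleotide, had 1.79 and 1.82 CPM in nanosticker, 9.69 and 9.90 in ultrasound, 4.36 and 4.97 in piezoelectric and 4.26 and 4.12 in untreated libraries. Its ultrasound libraries are far above and its nanosticker libraries far below the other 4. For Rsad2 the log2 fold change was 1.22 ± 0.16 (adjusted p = 5.03e-04) in ultrasound against untreated cells, -1.21 ± 0.19 (adjusted p = 2.50e-04) in nanosticker against untreated cells and -2.44 ± 0.18 (adjusted p = 3.44e-07) in nanosticker against ultrasound cells, the last being the largest in size among the 39 members in that comparison. Cmpk2, the kinase that supplies viperin's substrate, had 14.9 and 14.9 CPM in nanosticker, 27.2 and 27.0 in ultrasound, 26.4 and 24.5 in piezoelectric and 24.9 and 26.9 in untreated libraries. Here the nanosticker libraries are low and the other 6 lie close together. Cmpk2 had a log2 fold change of -0.80 ± 0.09 (adjusted p = 1.40e-05) in nanosticker against untreated cells and 0.06 ± 0.08 (adjusted p = 0.759) in ultrasound against untreated cells. Eif2ak2, which encodes PKR, the kinase that halts translation on double-stranded RNA, had 55.5 and 50.9 CPM in nanosticker, 75.6 and 76.1 in ultrasound, 68.5 and 66.3 in piezoelectric and 63.2 and 64.9 in untreated libraries. Adar, which edits adenosine to inosine in double-stranded RNA, had 102 and 92.0 CPM in nanosticker, 109.8 and 115 in ultrasound, 116 and 114 in piezoelectric and 107 and 116 in untreated libraries. In nanosticker against ultrasound cells Adar had -0.21 ± 0.07 (adjusted p = 0.0258), a call that ended without nanosticker library 2 (0.254) or either ultrasound library (0.0734 and 0.168) and with DESeq2 (0.0819). Eif2ak2 keeps its groups apart by small steps, and for Adar both nanosticker libraries are lowest. The nanosticker against untreated log2 fold change was -0.27 ± 0.07 (adjusted p = 0.00735) for Eif2ak2 and -0.20 ± 0.07 (adjusted p = 0.0316) for Adar. The ultrasound against untreated value was 0.24 ± 0.07 (adjusted p = 0.0450) for Eif2ak2 and 0.01 ± 0.07 (adjusted p = 0.955) for Adar. The ultrasound call of Eif2ak2 ended under 12 of the 17 alternatives (0.0553 to 0.257), including the removal of any 1 library but untreated library 2. Its nanosticker call ended without nanosticker library 2 (0.0967). The nanosticker call of Adar ended under 9 of the 17 (0.0519 to 0.28), including the removal of any 1 library but nanosticker library 1 and untreated library 1.

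The last 8 members, membrane proteins and other antiviral factors, were the least uniform, with 5 higher in ultrasound cells and with 3 higher and 3 lower in nanosticker cells, each against untreated cells. Of all genes 4.03% rose in ultrasound cells, and 19.8% rose and 17.7% fell in nanosticker cells. With 8 members the nanosticker counts of 3 cannot be told from these shares. Ifitm3 had 101 and 97.7 CPM in nanosticker, 128 and 132 in ultrasound, 79.6 and 77.2 in piezoelectric and 68.6 and 52.5 in untreated libraries. Both nanosticker and ultrasound libraries lie above the other groups, and the 2 untreated libraries differ from each other. For Ifitm3 the log2 fold change was 1.10 ± 0.10 (adjusted p = 1.46e-04) in ultrasound against untreated cells, 0.71 ± 0.10 (adjusted p = 3.28e-04) in nanosticker against untreated cells and -0.39 ± 0.10 (adjusted p = 0.0113) in nanosticker against ultrasound cells. The last of these lost the threshold without any 1 of the 4 libraries compared (0.0506 to 0.0839). Ifi44l, a member with few reads, had 2.18 and 2.29 CPM in nanosticker, 1.60 and 0.958 in ultrasound, 0.449 and 0.701 in piezoelectric and 0.452 and 0.322 in untreated libraries. It is 1 of 2 tested members with both nanosticker libraries above both ultrasound libraries, the other being Samd9l. For Ifi44l the log2 fold change was 2.51 ± 0.41 (adjusted p = 3.51e-04) in nanosticker against untreated cells, 1.71 ± 0.44 (adjusted p = 0.0341) in ultrasound against untreated cells and 0.80 ± 0.34 (adjusted p = 0.0870) in nanosticker against ultrasound cells. Its ultrasound call ended under 9 of the 15 alternatives that tested it (0.0508 to 0.322), including the removal of any 1 library but untreated library 1. Ifi44, its paralogue, was chosen after its values were seen and had 23.4 and 24.1 CPM in nanosticker, 23.4 and 28.3 in ultrasound, 16.5 and 18.5 in piezoelectric and 17.6 and 16.4 in untreated libraries. Its log2 fold changes were 0.48 ± 0.11 (adjusted p = 0.00380) in nanosticker against untreated cells and 0.61 ± 0.11 (adjusted p = 0.00406) in ultrasound against untreated cells, and the second call ended without ultrasound library 2 (0.0838). Ifi27, a small hydrophobic protein, had 49.2 and 50.6 CPM in nanosticker, 80.4 and 84.8 in ultrasound, 69.6 and 70.1 in piezoelectric and 73.5 and 60.8 in untreated libraries. Xaf1, which binds the apoptosis inhibitor XIAP, had 5.76 and 5.93 CPM in nanosticker, 11.0 and 11.4 in ultrasound, 8.66 and 7.84 in piezoelectric and 8.78 and 9.53 in untreated libraries. The nanosticker libraries are the lowest and the ultrasound libraries the highest for both. The nanosticker against untreated log2 fold change was -0.43 ± 0.08 (adjusted p = 0.00150) for Ifi27 and -0.65 ± 0.14 (adjusted p = 0.00271) for Xaf1. The ultrasound against untreated value was 0.30 ± 0.08 (adjusted p = 0.0475) for Ifi27, and 0.29 ± 0.13 (adjusted p = 0.246) for Xaf1. That call of Ifi27 ended under 12 of the 17 alternatives (0.0536 to 0.315), including the removal of any 1 library but untreated library 1. Rtp4, a chaperone of receptor transport named here after its values were seen, had 3.11 and 2.70 CPM in nanosticker, 8.54 and 9.90 in ultrasound, 6.22 and 4.65 in piezoelectric and 4.33 and 4.31 in untreated libraries. Its log2 fold changes were 1.09 ± 0.18 (adjusted p = 0.00280) in ultrasound against untreated cells and -0.57 ± 0.20 (adjusted p = 0.0424) in nanosticker against untreated cells. Its ultrasound call ended without ultrasound library 2 (0.0529) and its nanosticker call under 9 alternatives (0.0579 to 0.21), including the removal of any 1 library outside the piezoelectric group. Bst2, or tetherin, which holds budding virus at the cell surface, and Samd9l, whose counts are not whole, passed in neither comparison with untreated cells. In nanosticker against ultrasound cells Bst2 had -0.57 ± 0.21 (adjusted p = 0.0481), which ended under 7 alternatives (0.0502 to 0.323), including the removal of either nanosticker or either ultrasound library and of piezoelectric library 2.

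**Figure D3:**
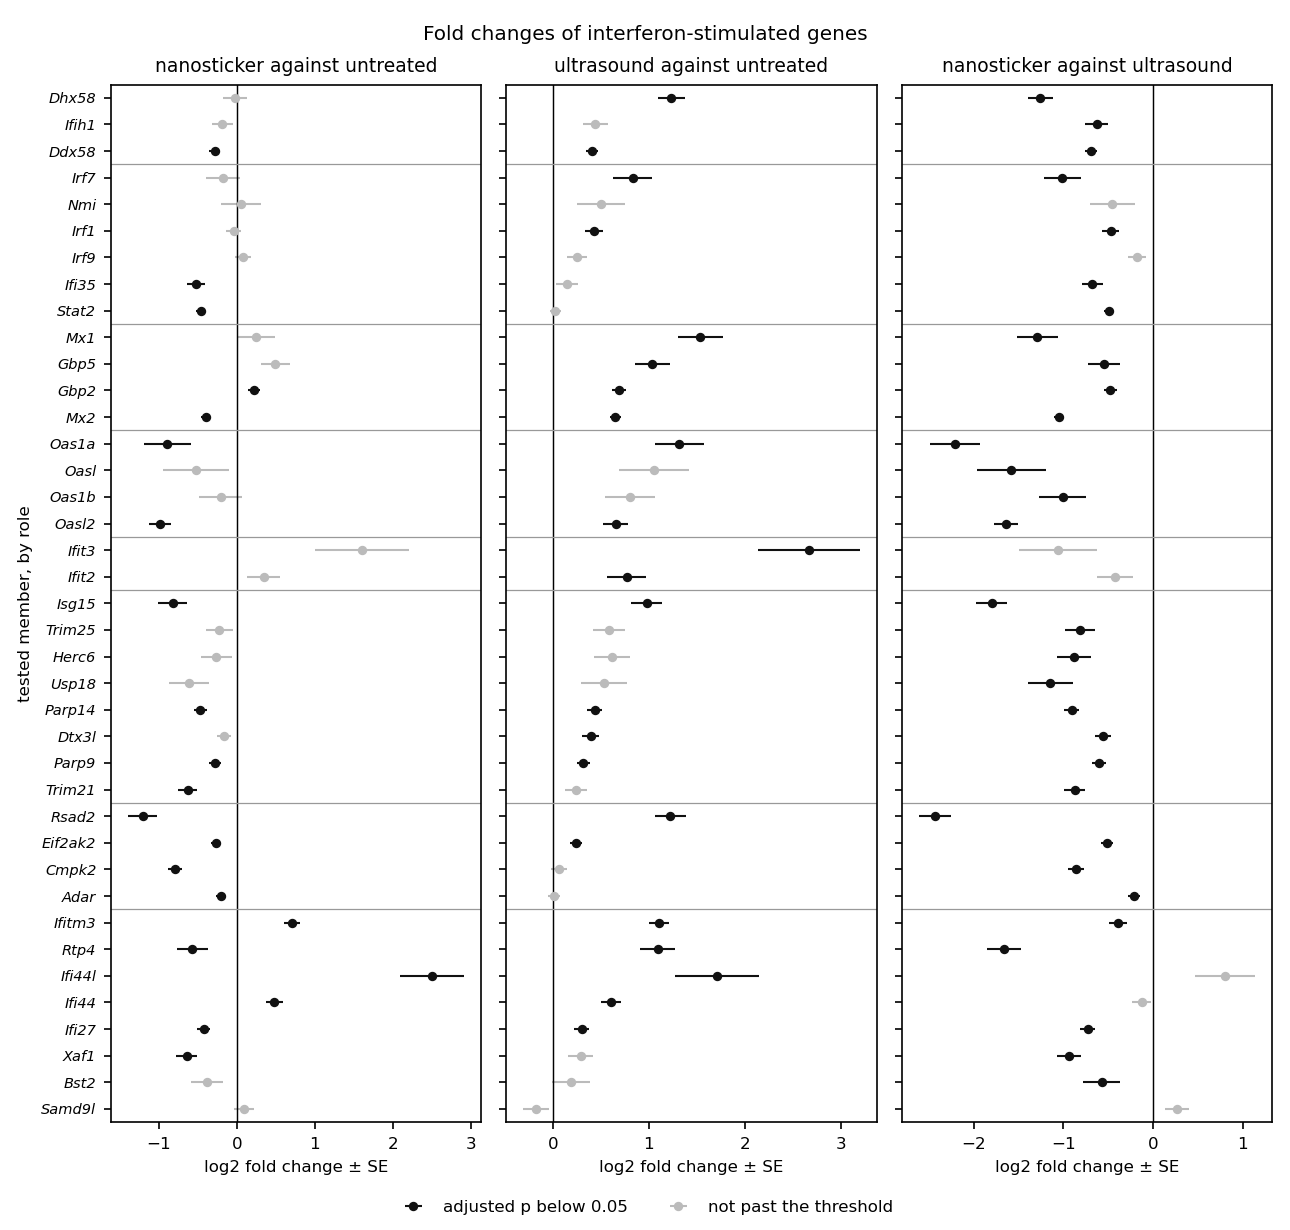
Log2 fold changes of the 39 tested interferon-stimulated genes (rows, by role) in 3 panels, nanosticker against untreated, ultrasound against untreated and nanosticker against ultrasound, with bars of 1 standard error, black where the adjusted p is below 0.05 and grey otherwise. Ultrasound against untreated has 23 black points, all to the right of 0, and nanosticker against ultrasound has 32, all to the left.

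No change of a member in piezoelectric against untreated cells passed the threshold. Of the 39 members 0 passed the edgeR test in either direction, where 0.16% of all genes rose and 0.0698% fell, and DESeq2 also called 0. At an unadjusted p below 0.05, 2 were higher and 0 lower. The median log2 fold change was 0.04, and the CPM of the libraries overlapped for 19 members. Both piezoelectric libraries lay above both untreated libraries for 11 members, beside 16.6% of all genes, and below them for 9, beside 17.7%. Mx2 had a log2 fold change of 0.25 ± 0.06 (adjusted p = 0.109), Ifitm3 of 0.37 ± 0.10 (adjusted p = 0.275) and Trim25 of 0.27 ± 0.17 (adjusted p = 0.735). Mx2 and Ifitm3 passed once each library's trend along transcript length was removed (adjusted p = 0.0164 for Mx2 and 0.015 for Ifitm3), and without untreated library 1 (0.0268 and 5.12e-05). Mx2 and Trim25 passed without untreated library 2 (0.0198 and 0.0281). Set against piezoelectric cells, nanosticker cells had 5 members higher, where 18.9% of all genes were higher, and 18 lower, where 17.4% were lower. Ultrasound against piezoelectric cells gave 20 higher, where 2.13% of all genes were higher, and 0 lower, where 1.37% were lower. At an unadjusted p below 0.05 there were 32 higher and 0 lower, and DESeq2 called 0 lower and gave an adjusted p for 18 of the 20. The count of 20 was 6 without piezoelectric library 1, 7 without piezoelectric library 2 or ultrasound library 2, 9 without ultrasound library 1 and 9 with DESeq2. The count of 18 was 11 without piezoelectric library 1.

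Several members are neighbours in the genome, and the calls of neighbours did not always match. A difference in response between neighbours was not tested. Coordinates are those of the deposited table, on build Rnor 6.0. Rsad2 (chromosome 6, 45655947 to 45669083) and Cmpk2 (chromosome 6, 45683242 to 45694824) stand on opposite strands, 14159 bases apart. In ultrasound against untreated cells the log2 fold change was 1.22 for Rsad2 and 0.06 for Cmpk2, while in nanosticker against untreated cells it was -1.21 and -0.80. Parp9 (chromosome 11, 67724071 to 67758027) and Dtx3l (chromosome 11, 67758093 to 67772428) are transcribed from opposite strands with 66 bases between the annotated genes. Since the use of strand in counting is not given, reads near this border could be credited to either. Their ultrasound against untreated log2 fold changes were 0.32 and 0.40, and their nanosticker against untreated values -0.28 and -0.16. Dtx3l did not pass in nanosticker against untreated cells (adjusted p = 0.193). Its ultrasound call (adjusted p = 0.0172) ended without either ultrasound library (0.169 and 0.109), with DESeq2 (0.205) and with only the groups compared (0.0768). Ifi44 (chromosome 2, 256897765 to 256915591) and Ifi44l (chromosome 2, 256948722 to 256979573) lie 33131 bases apart, and both rose in nanosticker and in ultrasound cells, each against untreated cells. Ifit2 (chromosome 1, 252894663 to 252900727) and Ifit3 (chromosome 1, 252906234 to 252911377) are separated by 5507 bases. Oasl (chromosome 12, 47444138 to 47456680) and Oasl2 (chromosome 12, 47470038 to 47483131) are separated by 13358 bases. They had nanosticker against untreated log2 fold changes of -0.53, which did not pass (adjusted p = 0.365), and -0.99, which did. Both values are negative, and Oasl had only 7 and 13 counts in nanosticker and 17 and 13 in untreated libraries. Gbp5 (chromosome 2, 248178441 to 248196873) and Gbp2 (chromosome 2, 248276795 to 248293784) are 79922 bases apart. Oas1a and Oas1b, 44369 bases apart, and Oas1b and Oas2, 74987 bases apart, are not drawn in the figure. Against untreated cells Oas1a passed in nanosticker and in ultrasound cells and Oas1b in neither, and Oas2 was not tested.

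**Figure D4:**
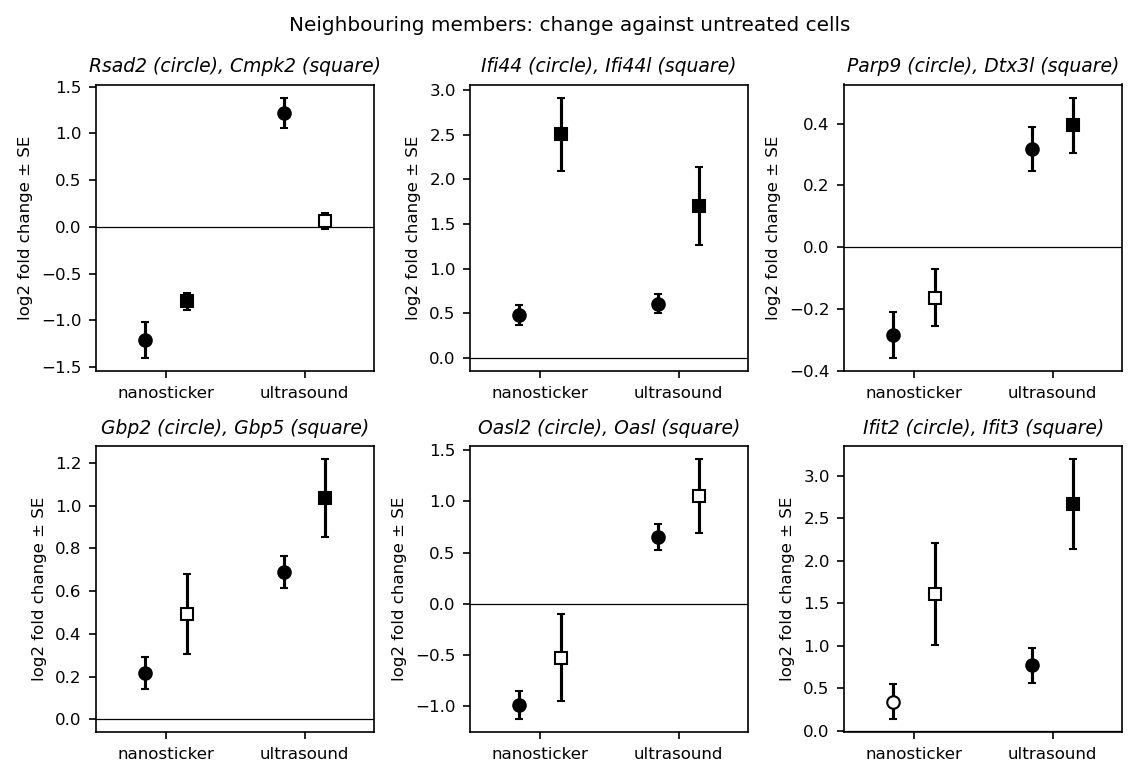
Log2 fold changes of nanosticker and ultrasound cells against untreated cells, with bars of 1 standard error, of 6 pairs of interferon-stimulated genes that lie within 100000 bases of each other. The first gene named above a panel is a circle and the second a square, filled where the adjusted p is below 0.05, and the Rsad2 and Cmpk2 points are apart in ultrasound against untreated cells (1.22 and 0.06).

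Genes upstream of the response, and further response genes, were counted from separate lists. Their counts stand beside 19.8% of all genes higher and 17.7% lower in nanosticker against untreated cells, and 4.03% higher and 3.16% lower in ultrasound against untreated cells. Of 15 interferons and receptors, 10 were in the table and 6 were tested, and the interferons Ifna1, Ifna2, Ifna4 and Ifne had 0 or 1 counts in every library. Genes of this list without a row, interferons among them, were not measured. These counts therefore do not show that interferon transcripts were absent. Against untreated cells 2 of the 6 rose and 0 fell in nanosticker cells, and 1 rose and 0 fell in ultrasound cells. Il10rb, a receptor chain shared by type III interferons and interleukin 10, had 19.0 and 17.9 CPM in nanosticker, 16.4 and 17.2 in ultrasound, 15.8 and 14.4 in piezoelectric and 13.6 and 12.8 in untreated libraries. Its log2 fold change was 0.48 ± 0.10 (adjusted p = 0.00280) in nanosticker against untreated cells. Ifnar2, the signalling chain of the type I receptor, had log2 fold changes of 0.29 ± 0.09 (adjusted p = 0.0220) in nanosticker and 0.32 ± 0.09 (adjusted p = 0.0476) in ultrasound against untreated cells, and these ended under 5 (0.0615 to 0.225) and 12 (0.0548 to 0.282) of the 17 alternatives. Leaving out nanosticker library 1 or untreated library 1 ended the nanosticker call, and leaving out any 1 library but untreated library 2 ended the ultrasound call. Of 15 tested genes of JAK-STAT signalling, 6 rose and 4 fell in nanosticker cells, and 3 rose and 0 fell in ultrasound cells, so that 4 of 15 lower in nanosticker cells is not far from the 17.7% of all genes. Socs3, a feedback inhibitor of JAK kinases, had 94.1 and 90.8 CPM in nanosticker, 48.1 and 47.9 in ultrasound, 28.2 and 25.1 in piezoelectric and 27.4 and 21.8 in untreated libraries, so that nanosticker libraries are highest and ultrasound libraries next. Socs3 had a log2 fold change of 1.91 ± 0.10 (adjusted p = 1.09e-08) in nanosticker and 0.96 ± 0.10 (adjusted p = 8.98e-05) in ultrasound against untreated cells. Ptpn11, the phosphatase SHP2, had 406 and 416 CPM in nanosticker, 278 and 275 in ultrasound, 284 and 272 in piezoelectric and 263 and 279.8 in untreated libraries, and its log2 fold change was 0.60 ± 0.05 (adjusted p = 1.87e-06) in nanosticker against untreated cells. Stat3, which carries signals of the interleukin 6 family, had 0.28 ± 0.05 (adjusted p = 9.54e-04) in nanosticker and 0.21 ± 0.05 (adjusted p = 0.0326) in ultrasound against untreated cells, the second ending under 8 alternatives (0.063 to 0.247), including the removal of any 1 treated library. Jak1, whose counts are not whole, had -0.21 ± 0.05 (adjusted p = 0.00903) and 0.27 ± 0.05 (adjusted p = 0.00755) in the same comparisons. The first ended without nanosticker library 1 (0.0683) or library 2 (0.0577) and the second without either ultrasound library (0.0794 and 0.109) or with only the groups compared (0.0701).

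Of 14 tested genes of nucleic acid sensing, 1 rose and 4 fell in nanosticker cells, and 0 rose and 1 fell in ultrasound cells, each against untreated cells. With 17.7% of all genes lower in nanosticker and 3.16% lower in ultrasound cells, these are few genes from which to read a difference from that background. Tlr7, the endosomal sensor of single-stranded RNA found mainly in immune cells, had 0 counts in both nanosticker libraries and 27 in the untreated libraries together. That puts it at least 8.68-fold higher in untreated cells, taking 3 counts over the group as the floor. The microglial gene Cx3cr1 was also at 0 there, and 10 of the 13 microglia and macrophage markers fell, while Tmem119 and P2ry12 were not lower. What part such cells have in the Tlr7 counts was not tested. Sting1, the adaptor of cytosolic DNA sensing, had 2.18 and 2.36 CPM in nanosticker, 1.41 and 1.09 in ultrasound, 0.449 and 0.701 in piezoelectric and 0.839 and 0.644 in untreated libraries. Its log2 fold change was 1.60 ± 0.34 (adjusted p = 0.00238) in nanosticker against untreated cells. Aim2, a DNA sensor of the inflammasome, had 3.31 and 3.44 CPM in nanosticker, 0.834 and 0.703 in ultrasound, 1.86 and 1.21 in piezoelectric and 2.52 and 1.67 in untreated libraries. Its ultrasound libraries are the lowest, with a log2 fold change of -1.44 ± 0.34 (adjusted p = 0.0223) in ultrasound against untreated cells. This call ended under 5 alternatives, among them the removal of ultrasound library 1 (0.125), ultrasound library 2 (0.183) or untreated library 1 (0.0846). Myd88, the adaptor of most Toll-like receptors, had -0.34 ± 0.08 (adjusted p = 0.00643) in nanosticker against untreated cells, ending without nanosticker library 1 (0.0706) and with DESeq2 (0.0628).

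A list of 44 further interferon-stimulated genes had 41 in the table and 38 tested. Against untreated cells 5 rose and 10 fell in nanosticker cells, and 9 rose and 0 fell in ultrasound cells, with medians of -0.14 and 0.26. The share of all genes was 19.8% higher and 17.7% lower in nanosticker cells, and 4.03% higher and 3.16% lower in ultrasound cells. In nanosticker cells the list's count lies below that share for higher genes and above it for lower genes, a difference that was not tested. In nanosticker against ultrasound cells 2 were higher and 17 lower, with a median of -0.31, where 17.6% of all genes were higher and 16.9% lower. Irgm, an interferon-inducible GTPase, had 18.7 and 17.7 CPM in nanosticker, 39.2 and 43.0 in ultrasound, 29.6 and 33.9 in piezoelectric and 30.8 and 29.6 in untreated libraries. It had log2 fold changes of -0.73 ± 0.09 (adjusted p = 4.37e-05) in nanosticker and 0.45 ± 0.09 (adjusted p = 0.00708) in ultrasound against untreated cells, the second ending without ultrasound library 2 (0.112). Casp4, the inflammatory caspase that senses bacterial lipopolysaccharide, had 26.2 and 24.6 CPM in nanosticker, 16.5 and 15.6 in ultrasound, 12.6 and 11.6 in piezoelectric and 12.5 and 11.7 in untreated libraries. Its log2 fold change was 1.08 ± 0.10 (adjusted p = 3.15e-06) in nanosticker and 0.41 ± 0.11 (adjusted p = 0.0321) in ultrasound against untreated cells, the second ending under 9 alternatives (0.0524 to 0.274), including the removal of any 1 library but untreated library 1. Parp10, whose counts are not whole, had -0.99 ± 0.09 (adjusted p = 3.21e-06), and Trafd1, a negative regulator of innate signalling, -0.43 ± 0.06 (adjusted p = 1.18e-04), both in nanosticker against untreated cells. Among 9 tested genes of interferon-responsive chemokines and antigen processing, 0 rose and 5 fell in nanosticker cells, and 2 rose and 0 fell in ultrasound cells. Cxcl10, a chemokine that draws T cells, had 2.65 and 2.29 CPM in nanosticker, 7.64 and 7.73 in ultrasound, 2.76 and 2.36 in piezoelectric and 2.58 and 2.51 in untreated libraries. Its ultrasound libraries alone stand apart, with a log2 fold change of 1.59 ± 0.19 (adjusted p = 2.45e-04) in ultrasound and -0.04 ± 0.21 (adjusted p = 0.904) in nanosticker against untreated cells. B2m, the light chain of class I antigen-presenting molecules, had 578 and 562 CPM in nanosticker, 809.9 and 852 in ultrasound, 720.2 and 724 in piezoelectric and 745 and 679.8 in untreated libraries. Its log2 fold change was -0.32 ± 0.06 (adjusted p = 7.27e-04) in nanosticker and 0.22 ± 0.06 (adjusted p = 0.0366) in ultrasound against untreated cells, the second ending under 9 alternatives (0.0527 to 0.314), including the removal of any 1 treated library. The immunoproteasome subunits Psmb10 and Psmb8, of which Psmb8 has counts that are not whole, had -0.68 ± 0.10 (adjusted p = 1.23e-04) and -0.76 ± 0.15 (adjusted p = 0.00174) in nanosticker against untreated cells. In piezoelectric against untreated cells 0 of the 82 tested genes of these lists passed the edgeR test, and at an unadjusted p below 0.05 there were 1 higher and 5 lower. DESeq2 also called 0.

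The members were set beside the microglial markers library by library. The median log2 ratio of the 39 members to the untreated mean was -0.23 and -0.26 in nanosticker libraries, 0.48 and 0.64 in ultrasound libraries and 0.03 and 0.03 in piezoelectric libraries. Ultrasound and untreated libraries overlap in the summed microglial markers, at 52.6 to 55.8 and 50.4 to 59.3 TPM, where their members' medians are apart. Piezoelectric libraries lie below both in that sum, at 37.5 to 41.5 TPM. Nanosticker libraries are lower in both measures. What part the markers' cells have in the members' levels of any group was not tested.

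**Figure D5:**
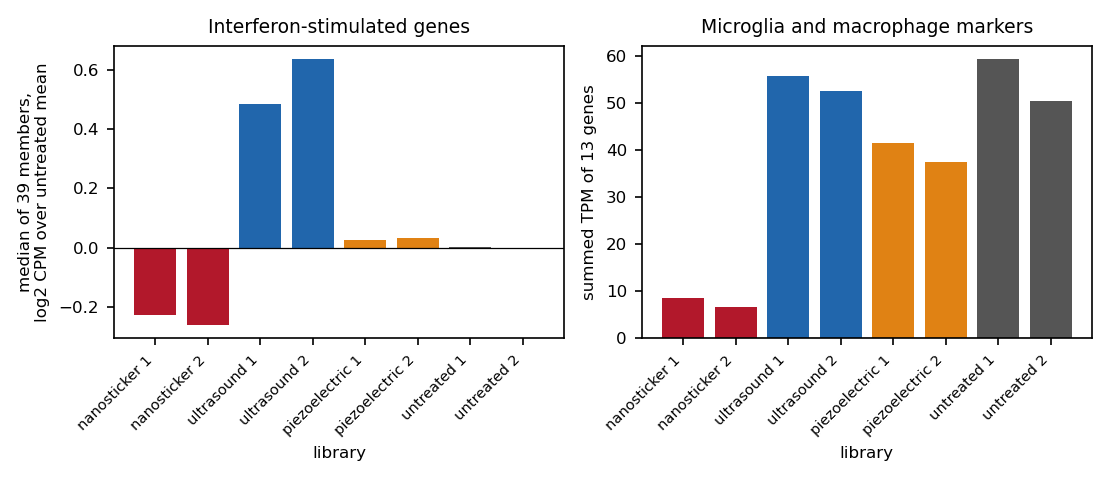
Median log2 ratio of the 39 tested members to the untreated mean (CPM, left panel) and summed TPM of the 13 microglia and macrophage markers (right panel) in each of the 8 libraries. Ultrasound libraries lie at 0.48 and 0.64 in the first and within the range of the untreated libraries in the second.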

How the data were processed

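Messenger RNA of 8 libraries was measured, 2 per group. Per the labels' protocols it was selected with oligo(dT) and primed with random hexamers. The authors deposited 1 table of 18374 genes with an estimated count, a TPM and an FPKM per library, per the file headers. The deposited expected counts are not whole for 10.5% of values (tolerance 0.005) and were rounded. Deposited TPM values compare genes, and the deposited FPKM values served only to derive effective lengths. Per the submitters' processing notes, reads were placed on Rnor 6.0. The sources used here name no aligner or counting tool and do not say whether strand was used.

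R 4.3.3 with edgeR 4.0.16 (filterByExpr, trimmed mean of M values (TMM) scaling, robust quasi-likelihood F test, two-sided, 1 mean per group, 4 residual degrees of freedom, Benjamini-Hochberg over 14336 genes, threshold 0.05) gave all tests, and the SE is the log2 fold change over the square root of F. The steps were tested on simulated counts. Alternatives were DESeq2 1.42.0, other scalings and filters, whole counts only, a replicate block, only the groups compared, a removed length trend (lowess, span 0.3) and each library left out, 17 in all. Members and lists were chosen with earlier results of these data known. Within each role up to 4 members called against untreated cells with the smallest adjusted p are given in full, and likewise for the pathway lists. Promoter sequences were not analysed here. 1 gene of the pathway lists is not reported here.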

Additional observations from a re-analysis of the deposited data

How the results depend on the processing

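Of the member calls, 7 of 23 in ultrasound against untreated cells held under each of the 17 alternatives run that tested the gene (Ddx58, Dhx58, Gbp2, Ifitm3, Mx1, Mx2 and Rsad2), as did 14 of 21 in nanosticker against untreated, 25 of 32 in nanosticker against ultrasound, 12 of 23 in nanosticker against piezoelectric and 5 of 20 in ultrasound against piezoelectric cells. No called member changed sign under any of them. For the counts of members under each alternative, here and above, the share of all genes called in the same fit is not given. A shift in such a count is therefore not read as particular to the members.

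DESeq2 gave 13 members higher in ultrasound against untreated, 3 higher in nanosticker against piezoelectric and 9 higher in ultrasound against piezoelectric cells. In the first and last of these it gave an adjusted p for 21 and 18 of the members that edgeR called. With library size alone the median log2 fold change of the members was -0.33 in nanosticker against untreated and -0.32 in nanosticker against piezoelectric cells. It was -0.22 in nanosticker against untreated cells with no low-count filter, and 0.44 in ultrasound against piezoelectric cells with the stricter filter, which tested 36 members. Removing the length trend gave 2 members higher in piezoelectric against untreated cells, and fitting only the groups compared gave 1 (Ifi44l) higher in nanosticker against ultrasound cells. The cause of these shifts was not tested.

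With 1 library left out, and a group's lone library taken to vary like the others, nanosticker against untreated cells had 3 to 5 members higher and 12 to 17 lower, with medians of -0.28 to -0.24. Ultrasound against untreated cells had 9 to 24 higher, with medians of 0.49 to 0.67. Piezoelectric against untreated cells had 0 to 2 higher, with medians of -0.0059 to 0.0413. Nanosticker against ultrasound cells had 27 to 32 lower, with medians of -0.76 to -0.72. Nanosticker against piezoelectric cells had 2 to 5 higher and 11 to 18 lower, with medians of -0.32 to -0.23, and ultrasound against piezoelectric cells had 6 to 27 higher, with medians of 0.45 to 0.58.

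The labels do not say whether the replicate numbers pair samples across groups. Differences between the 2 libraries of a group correlated between -0.136 and 0.135 across genes from group to group. These values cannot decide it, since such differences also varied with transcript length. A replicate block gave 3 members higher and 14 lower in nanosticker against untreated, 18 higher in ultrasound against untreated, 31 lower in nanosticker against ultrasound, 5 higher and 17 lower in nanosticker against piezoelectric and 15 higher in ultrasound against piezoelectric cells. With 2 libraries a group and under 1 CPM, as for Ifit3, small changes were not detectable at this depth.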
